A study of Homo sapiens with 6 samples.

Results

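RAB small GTPases are the molecular switches of membrane traffic, and 62 of the 63236 genes listed for FUJIOKA cells belong to this family. They were taken by gene symbol (RAB followed by a number and at most 1 letter), and RAB1C, which fits the pattern but is a processed pseudogene, was left out. FUJIOKA is a human acute myeloid leukaemia line with a complex karyotype. All 6 libraries came from cells made stable with the doxycycline-inducible vector Tet-pLKO-puro, which carried a scrambled control shRNA in the 3 shNEG libraries and a SPINK2 shRNA in the 3 shSPINK2 libraries. Doxycycline was given to induce the shRNA, the time at which RNA was taken is not given in the sources used here, and nothing says that the 3 libraries of a group came from separate cultures, so the p-values measure only the spread between these libraries, which may be technical. The study's methods describe 1 SPINK2 shRNA, which has the sequence of shRNA1 below, and the labels give 2. The labels do not say which of these each shSPINK2 library carries, so it is not known whether any library carries shRNA2.

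A RAB protein is active when it holds GTP and inactive when it holds GDP. Exchange factors load GTP and so switch it on at a given membrane, GTPase-activating proteins switch it off, and escort proteins and GDP dissociation inhibitors carry the prenylated protein to and from membranes. A RAB marks particular membranes, where it recruits effectors such as tethers, motors and lipid kinases. Several RABs can share a compartment, and a RAB can act at several. In myeloid cells RABs direct phagosome maturation, receptor recycling and the release of granules. Here they were grouped as secretory, early endosomal, late endosomal and recycling RABs, with RABs of the endoplasmic reticulum (ER) and Golgi, RABs of lysosome-related organelles and the remaining members beside them.

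Values are reads per library, recovered as whole numbers from the deposited means with the help of the deposited fold changes and divided by the library's size factor (normalized reads). The group means therefore carry the deposited contrast, read as shSPINK2 over shNEG, and are no independent check of its direction. Recovered reads summed to between 26833219 and 27737895 per library, and size factors differed by at most 4.85%. The deposited means of all genes sum to 38425214, so the recovered sums lack part of the counted reads and are not the library depth. The libraries are called a, b and c within a group and carry no replicate number. SPINK2, the targeted gene (chr4:56809860-56821742, GRCh38), had 55.8, 62.96 and 53.1 normalized reads with shNEG against 6.78, 8.92 and 6.09 with shSPINK2 (log2 fold change -2.91, standard error 0.27, limma adjusted p = 9.58e-12). Of 10 markers of myeloid leukaemia, KIT was near 0 with a mean of 0.666 normalized reads and CD34 was low with a mean of 19.6, 6 others had a mean of 1844 or more, and for LYZ and CEBPA no reads were recovered. The 8 of these 10 with recovered reads summed to between 36706 and 38314 normalized reads in shNEG and between 44381 and 45851 in shSPINK2. They did not move together: log2 fold changes were 0.82 for ANPEP, 0.36 for CD33 and 0.32 for PTPRC, called higher, and -0.86 for CD34 and -0.40 for MPO, called lower, while SPI1 and CSF3R did not pass, and their part in the results below was not tested. Of 16 markers of other cell types 7 were at 0, and the sum of the 16 was 310 to 331 in shNEG and 233 to 247 in shSPINK2. In bulk RNA, fewer cells of a type and less RNA per cell cannot be told apart.

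The labels give the SPINK2 sequences that the shRNAs target, and the study's methods name the first alone. Both sequences are shown because a 7-base word of the second one, in capitals, recurs in the 3′ UTRs of several RAB genes that were lower. Both targets lie in the SPINK2 coding sequence across an exon junction, the first spanning chr4:56810168-56811688 and the second chr4:56811776-56820537 on the minus strand (GRCh38, GENCODE release 44).
shRNA1: tcagggaaggtggtcataata
shRNA2: cgccaaactGCTCTCAgtata

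The word GCTCTCA occupies positions 10 to 16 of the shRNA2 target, counted from its 5′ end. It was picked out by an earlier scan of these same data, so its counts describe the RAB genes and are no independent evidence. Searched on the transcript strand of canonical 3′ UTRs, the word was present in 10 of 54 tested RAB genes (18.5%) and in 1262 of 12081 tested genes with a 3′ UTR (10.4%). RAB3B held it 3 times, and RAB22A, RAB6B, RAB42, RAB23, RAB21, RAB5C, RAB9A, RAB11B and RAB3C held it once. The sites below are windows of 29 bases around the word, which is in capitals, read 5′ to 3′ on the strand of the gene. The first 7 are the sites of the RAB genes with the word that were called lower by the most. The last 2 are from members with the word that were not called lower, RAB9A and RAB3C. The sites of RAB21, called lower, and of RAB5C and RAB11B, which did not pass, are not printed.
RAB3B, chr1:51919835-51919863, minus strand: acacactgtccGCTCTCAgcccactctcc
RAB3B, chr1:51919419-51919447, minus strand: gtcaagcttggGCTCTCAaagccctgcgc
RAB3B, chr1:51908255-51908283, minus strand: gaggaacaataGCTCTCAcgtctctcctc
RAB22A, chr20:58360378-58360406, plus strand: tttttaaataaGCTCTCAtgatcaagatg
RAB6B, chr3:133826836-133826864, minus strand: ttgtttctcctGCTCTCAagttggaactt
RAB42, chr1:28594758-28594786, plus strand: gaatgacaaaaGCTCTCAttcccactccc
RAB23, chr6:57189529-57189557, minus strand: ggtgagctcctGCTCTCAtaaggtcagcc
RAB9A, chrX:13710405-13710433, plus strand: tttagtgatttGCTCTCAaggagattttt
RAB3C, chr5:58858236-58858264, plus strand: atttgttcttaGCTCTCAaaatccactga

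Of the 10 RAB genes with the word, 6 were called lower, 1 higher and 3 did not pass, with a median log2 fold change of -0.26. Of the 44 without it, 5 were lower and 27 higher, with a median of 0.21. Over all tested genes with a 3′ UTR, 668 of 1262 with the word were lower (52.9%, beside 60% of the 10 RAB genes) and 228 higher, and 32.4% of those without it were lower (beside 11.4% of the 44 RAB genes). The lower calls among RAB genes with the word were thus near the share of all genes with it. Over all these genes the medians were -0.19 with the word and 0.003 without it. The 3′ UTRs with the word were also longer, with a median of 4011 bases against 2161 among RAB genes and 3209 against 1149 among all genes, and the part of UTR length was not tested. Aligned at the word, the longest unbroken match to the shRNA2 target was 9 bases in RAB6B and RAB23 and 7 or 8 bases at the other sites. The words that pair with positions 2 to 8 of the guides were TCATAAT for shRNA1, present in 7 RAB 3′ UTRs of which 2 genes were lower and 4 higher, and TCAGTAT for shRNA2, present in 13 of which 4 were lower and 6 higher. These lower shares of 28.6% and 30.8% stand beside 32.1% of 1632 and 33.4% of 1859 tested genes with the same words. A match describes these letters and is not evidence of binding.

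Of the 62 RAB genes, 3 (RAB17, RAB19 and RAB39A) had no read in any library, which allows up to 3 reads per library by counting error alone, and 5 (RAB25, RAB32, RAB34, RAB6C and RAB40A) had a mean below the limit of 10 normalized reads. The other 54 were tested, and 28 were called higher in shSPINK2, 11 lower and 15 neither, a call being an adjusted p under 0.05 in limma over all 15793 tested genes. These are 51.9% higher and 20.4% lower, beside 28.5% higher and 29.8% lower among all tested genes, of which 58.2% were called in either direction. Among protein-coding genes alone 31.8% were higher and 35.2% lower. The median log2 fold change was 0.14 for RAB genes and 0.001 for all tested genes. With edgeR the same 54 genes gave 28 higher and 11 lower, beside 28.6% higher and 29.7% lower among all tested genes. With DESeq2 they gave 24 higher and 10 lower, beside 24.9% higher and 26.8% lower.

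Most RAB genes changed little. Of those called with an absolute log2 fold change of at least 0.5, 8 were higher (14.8% of tested RAB genes, beside 10.1% of all genes) and 5 lower (9.26%, beside 11.1%). Past an absolute log2 fold change of 1 were RAB39B and RAB37 in the higher direction (3.7%, beside 1.86%) and RAB3B and RAB22A in the lower (3.7%, beside 2.94%). All 3 shSPINK2 libraries lay above all 3 shNEG libraries in 30 RAB genes (55.6%, beside 30.5% of all genes) and below them in 11 (20.4%, beside 31.6%). Of the 39 called RAB genes, 29 kept their call and direction under each of the 15 other fits (other tests, scalings and filters, and each library left out), where the gene entered the fit.

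**Figure D1:**
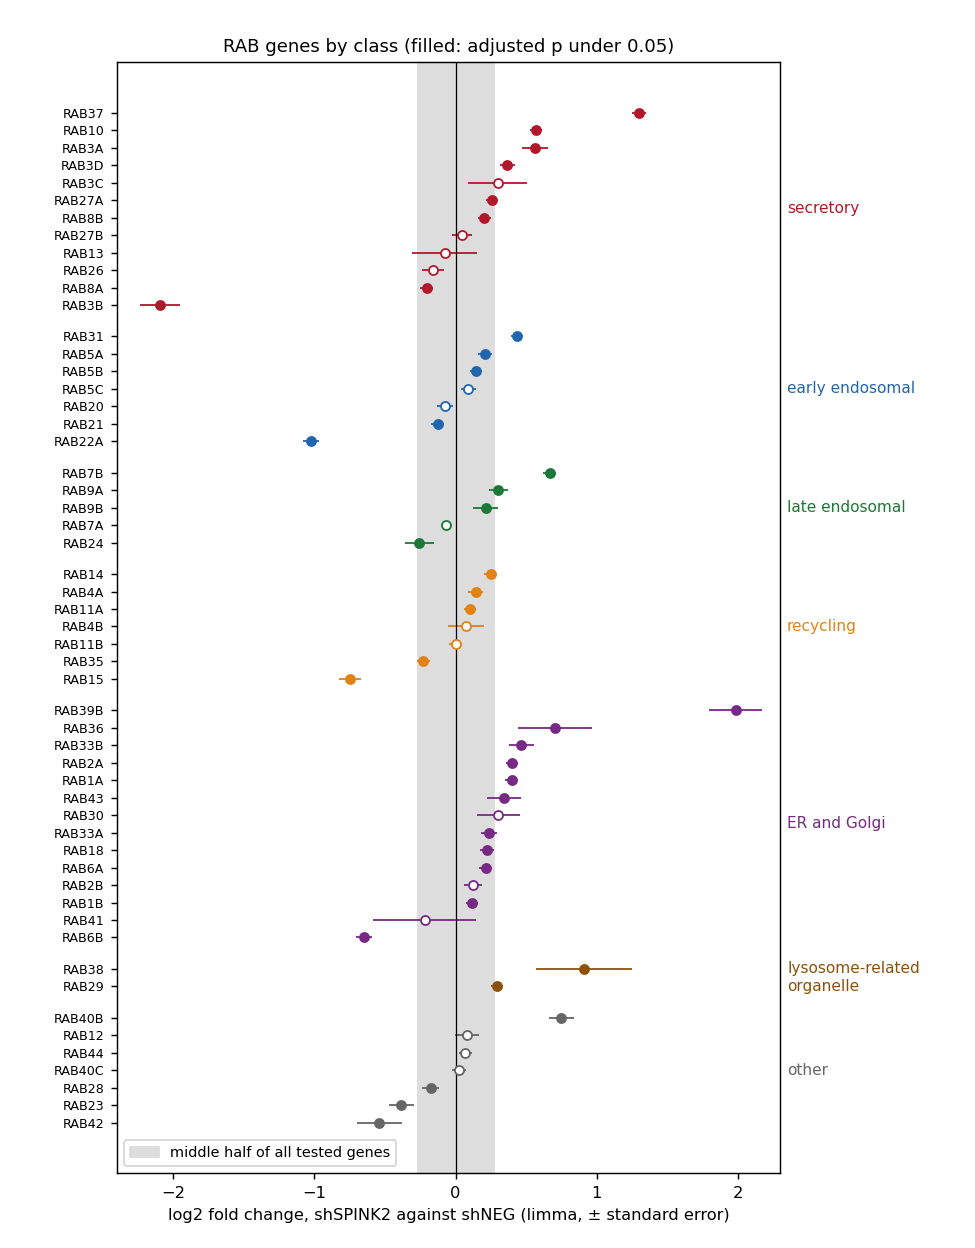
Log2 fold change of shSPINK2 against shNEG for each of the 54 tested RAB genes (points, with the limma standard error as bars), ordered within 7 classes. Filled points are called at an adjusted p under 0.05, and the grey band is the interquartile range of all 15793 tested genes. RAB3B and RAB22A lie farthest to the left and RAB39B and RAB37 farthest to the right.

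The classes were compared by counts and medians, without a test between them. Among all tested genes 28.5% were higher and 29.8% lower, with a median log2 fold change of 0.001. Of 12 tested secretory RABs 6 were higher and 2 lower (median log2 fold change 0.23), of 7 early endosomal RABs 3 and 2 (median 0.09), of 5 late endosomal RABs 3 and 1 (median 0.21) and of 7 recycling RABs 3 and 2 (median 0.07). ER and Golgi RABs had 10 higher and 1 lower of 14 (median 0.27). Each of these 5 classes held genes called in both directions, and in each of them more genes were higher than lower. Over all tested genes 4498 were higher and 4701 lower. The lower calls of the early endosomal and of the recycling RABs, 2 of 7 each, were near the lower share of all tested genes. Both tested RABs of lysosome-related organelles were higher (median 0.60). The remaining members without a class had 1 higher and 3 lower of 7 (median 0.02).

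Levels were compared between genes as normalized reads per kilobase of annotated exon, which can understate a gene that uses only part of its annotated exons. Summed over all members, this level went from 29382 ± 164 in shNEG to 33907 ± 807 in shSPINK2 (SD, n = 3), 15.4% higher, and the groups did not overlap. The secretory sum went from 6083 ± 85.6 in shNEG to 7966 ± 325 in shSPINK2, and its share of the RAB total from 20.7 ± 0.305% to 23.5 ± 0.408%. RAB10 alone made much of this: without it the secretory sum was 16.6% higher in place of 30.97%, and its share was 11.3 ± 0.335% in shNEG and 11.5 ± 0.105% in shSPINK2, with overlapping groups. The recycling share was 16.1 ± 0.292% in shNEG and 14.3 ± 0.177% in shSPINK2, without overlap, while its summed level overlapped between the groups. The early endosomal share was 17.2 ± 0.123% and 16.8 ± 0.121%, and the late endosomal share 9.72 ± 0.032% and 9.396 ± 0.112%, both slightly smaller in shSPINK2 without overlap. Their summed levels were higher without overlap. The early endosomal sum went from 5052 ± 57.8 in shNEG to 5703 ± 157 in shSPINK2 (12.9%). The late endosomal sum went from 2856 ± 21.6 in shNEG to 3185 ± 48.1 in shSPINK2 (11.5%). Summed over all members without RAB10, the level was 11.99% higher in shSPINK2, near both of these. The recycling, early and late endosomal shares were taken of a total that includes RAB10. With 3 libraries a group, the smallest p of an exact two-sided permutation test is 0.1, so none is given for these sums.

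Among secretory RABs, the 2 with the largest changes moved in opposite directions. RAB37, a RAB of secretory granules, lies at chr17:74670578-74747335 (GRCh38, as for all positions below). It had 1222, 1148 and 1206 normalized reads with shNEG against 2959.8, 2943 and 2908 with shSPINK2. It rose 2.46-fold (log2 fold change 1.301, standard error 0.05, limma adjusted p = 8.69e-23), and each shSPINK2 library exceeded each shNEG library. RAB3B, of the RAB3 family of regulated exocytosis (chr1:51907956-51990700), had 165, 169.9 and 156 normalized reads in shNEG and 34.8, 37.6 and 41.6 in shSPINK2. It fell by 76.6% (log2 fold change -2.09, standard error 0.14, limma adjusted p = 3.02e-15), again without overlap. RAB3B is the member with the word GCTCTCA 3 times in a 3′ UTR of 11971 bases.

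The other RAB3 genes did not fall. RAB3A, the RAB of synaptic vesicles and other regulated secretory vesicles, had 191, 175 and 181 normalized reads in shNEG and 251, 267 and 291 in shSPINK2 and was higher (log2 fold change 0.56, standard error 0.09, limma adjusted p = 2.66e-06). RAB3D, found on the granules of exocrine and mast cells, had 1737, 1479 and 1538 in shNEG and 2067, 1946 and 2104 in shSPINK2 and was higher as well (log2 fold change 0.37, standard error 0.05, limma adjusted p = 3.33e-07). RAB3C, with 30.9, 28.98 and 30.03 normalized reads in shNEG and 36.8, 37.6 and 36.5 in shSPINK2, did not overlap between the groups but did not pass the test (log2 fold change 0.30, standard error 0.21, limma adjusted p = 0.222), and this gene also holds the word. Per kilobase, RAB3D made up 73.8 to 76.3% of the RAB3 family in every library. The share of RAB3B was 2.48, 2.94 and 2.61% with shNEG against 0.441, 0.491 and 0.501% with shSPINK2, so its fall concerned a minor member of the family.

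RAB27A and RAB27B dock granules and exosome-bearing endosomes at the plasma membrane. RAB27A (chr15:55202966-55319113), which is lost in an inherited disorder of pigment and of lymphocyte granule release, had 5839, 5765 and 5819.6 normalized reads in shNEG and 6759, 7282 and 6828 in shSPINK2. It was higher in each shSPINK2 library (log2 fold change 0.26, standard error 0.04, limma adjusted p = 2.73e-06). RAB27B had 466, 441 and 412 in shNEG and 435, 474 and 455 in shSPINK2, and the groups overlapped (log2 fold change 0.05, standard error 0.07, limma adjusted p = 0.588).

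RAB10, which moves vesicles from the Golgi and endosomes to the plasma membrane, including those of the glucose transporter GLUT4, had the highest level per kilobase of all RAB genes in shSPINK2 and the second after RAB1B in shNEG, 2751 ± 21.5 in shNEG and 4083 ± 223 in shSPINK2 (SD, n = 3). It counted 9963, 10112 and 10078 normalized reads with shNEG against 14311, 15842 and 14599 with shSPINK2, and it rose 1.48-fold without overlap (log2 fold change 0.57, standard error 0.04, limma adjusted p = 8.54e-14). The paralogues RAB8A and RAB8B, which carry cargo from the Golgi to the cell surface and the primary cilium, moved apart. RAB8A had 5463, 5582 and 5125 in shNEG and 4340.0, 4763 and 4947 in shSPINK2 and was lower (log2 fold change -0.20, standard error 0.05, limma adjusted p = 0.000371), and 39.7% of its exon bases are shared with an unnamed gene on the opposite strand (ENSG00000269243, mean 98.4). RAB8B had 4165, 3966 and 3898 in shNEG and 4438, 5048 and 4402 in shSPINK2 and was higher (log2 fold change 0.20, standard error 0.05, limma adjusted p = 0.000432). RAB26, a RAB of secretory granules (log2 fold change -0.16), and RAB13, a RAB of cell junctions (-0.08), did not pass, but RAB26 was called without shSPINK2 library c (log2 fold change -0.23, limma adjusted p = 0.0256).

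**Figure D2:**
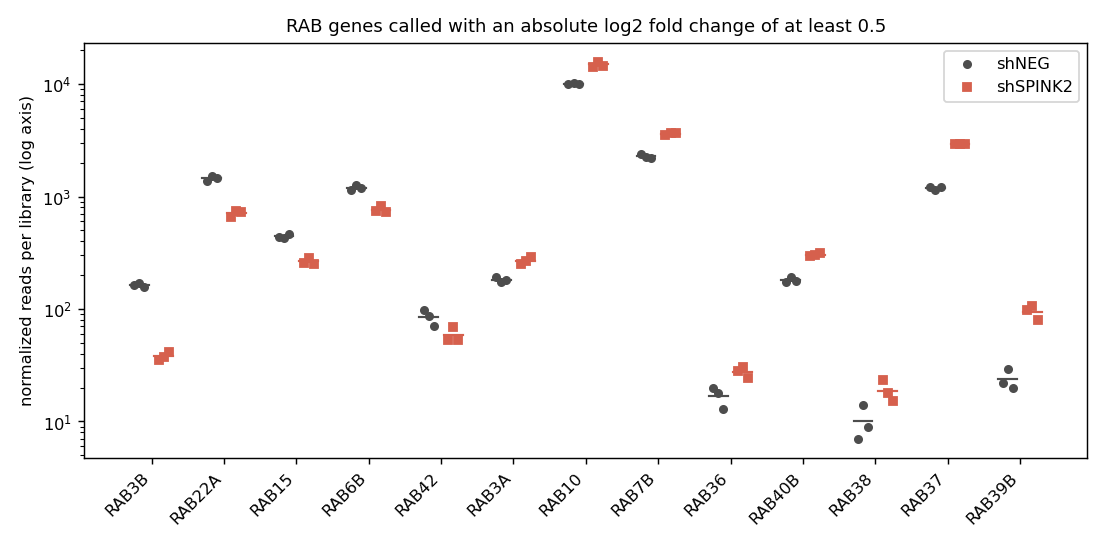
Normalized reads (log axis) in each library for the 13 RAB genes called with an absolute log2 fold change of at least 0.5, ordered by fold change from RAB3B to RAB39B. Circles are the shNEG libraries, squares the shSPINK2 libraries and bars the mean of 3. The genes were chosen by their difference in these same libraries, so the gap between the groups is no further evidence.

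Of the early endosomal RABs, the RAB5 genes, which drive the fusion of endocytic vesicles with early endosomes, were equal or slightly higher. RAB5A had 2492, 2324 and 2601 normalized reads in shNEG and 2832, 2969 and 2770.4 in shSPINK2 (log2 fold change 0.21, standard error 0.05, limma adjusted p = 0.000309). RAB5B had 8506, 8479.5 and 8534 in shNEG and 9396, 9515 and 9269 in shSPINK2 (log2 fold change 0.14, standard error 0.04, limma adjusted p = 0.00311). Both were called higher, without overlap. RAB5C had 2070.1, 1924 and 2010.3 in shNEG and 2228, 2245 and 1926 in shSPINK2, which overlap, and did not pass (log2 fold change 0.09, standard error 0.05, limma adjusted p = 0.151), although it did without shSPINK2 library c (log2 fold change 0.16, limma adjusted p = 0.0098). The shares of the 3 RAB5 genes in their family overlapped between the groups.

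RAB22A and RAB31, close relatives of RAB5 that sort cargo on endosomes and at the trans-Golgi network, changed in opposite directions. RAB22A (chr20:58309715-58367507), with the word in its 3′ UTR of 7804 bases, had 1369, 1507 and 1468 normalized reads in shNEG and 663, 736 and 734 in shSPINK2. It fell by 50.9% in the fit (log2 fold change -1.03, standard error 0.06, limma adjusted p = 1.47e-17), with each shSPINK2 library below each shNEG library. RAB31 (chr18:9708275-9862551), the early endosomal RAB with the highest level per kilobase (1381 ± 13.01 in shNEG and 1872 ± 102 in shSPINK2, SD, n = 3), had 7626, 7486 and 7579 normalized reads in shNEG and 9615, 10673 and 10458 in shSPINK2. It was higher, without overlap (log2 fold change 0.44, standard error 0.04, limma adjusted p = 8.74e-11). The share of RAB22A in the sum of both, per kilobase, was 9.59, 10.6 and 10.3% with shNEG against 3.92, 3.92 and 3.98% with shSPINK2.

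RAB21, which carries integrins, holds the word as well, and was lower by a small amount, with 2299, 2394 and 2352 normalized reads in shNEG and 2059, 2308 and 2089 in shSPINK2 that overlap (log2 fold change -0.13, standard error 0.05, limma adjusted p = 0.0248). This call was lost without shNEG library b or c or shSPINK2 library a or c, with adjusted p-values in limma of 0.073 to 0.105 and log2 fold changes of -0.13 to -0.10. RAB20, a RAB of maturing phagosomes, did not pass (log2 fold change -0.07, standard error 0.06, limma adjusted p = 0.259).

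The late endosomal RABs were dominated by RAB7A, which brings late endosomes, phagosomes and autophagosomes to the lysosome. RAB7A had 13210.5, 13199 and 13540.4 normalized reads in shNEG and 12548, 12855 and 12772 in shSPINK2, did not overlap, and did not pass (log2 fold change -0.07, standard error 0.04, limma adjusted p = 0.173). RAB7B (chr1:205976740-206003461), which returns cargo from late endosomes to the Golgi and is known from monocytes, had 2385, 2249 and 2199.5 in shNEG and 3529, 3635 and 3695 in shSPINK2. It rose 1.59-fold without overlap (log2 fold change 0.67, standard error 0.05, limma adjusted p = 4.51e-15). The share of RAB7B in the pair, per kilobase, was 26.1, 24.95 and 24.1% with shNEG against 35.4, 35.6 and 36.1% with shSPINK2.

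RAB9A and RAB9B, which return mannose 6-phosphate receptors from late endosomes to the Golgi, were both called higher. RAB9A had 506, 473 and 478 normalized reads in shNEG and 598, 619 and 578 in shSPINK2 (log2 fold change 0.30, standard error 0.07, limma adjusted p = 0.000155), and it is the 1 RAB gene with the word that was called higher. RAB9B had 221, 233 and 220.2 in shNEG and 253, 282 and 249 in shSPINK2 (log2 fold change 0.21, standard error 0.09, limma adjusted p = 0.0377). RAB24, a RAB linked to autophagy, was called lower with 200.4, 217 and 189 in shNEG and 162, 158 and 189 in shSPINK2 (log2 fold change -0.26, standard error 0.10, limma adjusted p = 0.0293), and the closest libraries of the groups lay less than 1 normalized read apart. The calls of RAB9B and RAB24 were not firm. With DESeq2 the adjusted p was 0.107 for RAB9B and 0.0958 for RAB24. RAB9B lost its call without shNEG library a or c or shSPINK2 library b (limma adjusted p of 0.0946 to 0.16), and RAB24 without library a or b of either group (0.06 to 0.137). MXD3 on the same strand shares 44.8% of the exon bases of RAB24 and was itself lower (log2 fold change -0.84), and how reads of these bases were assigned is not given in the sources used here.

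**Figure D3:**
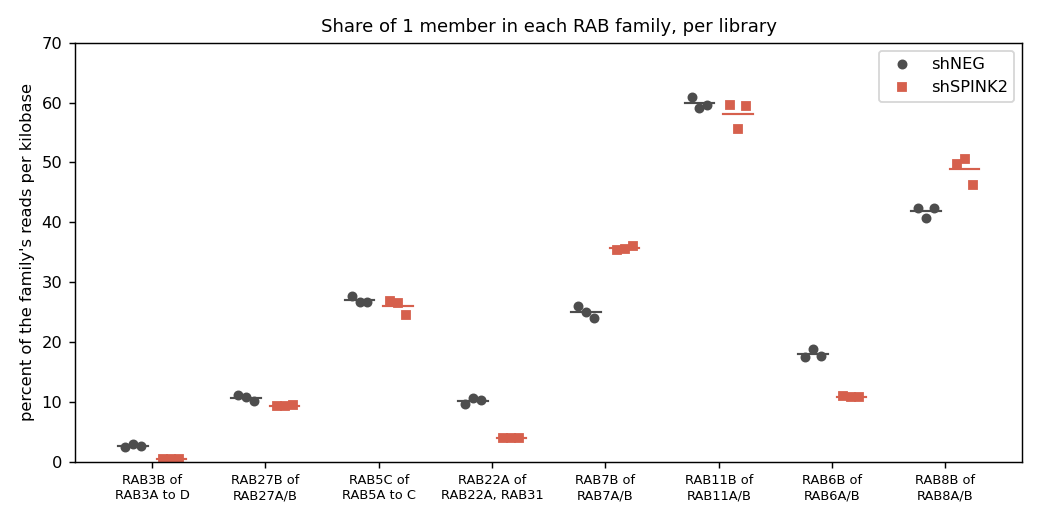
Share of 1 named member in the summed reads per kilobase of its family (percent), in each library of shNEG (circles) and shSPINK2 (squares), with bars for the mean of 3. RAB7B and RAB8B take a larger share in shSPINK2 and RAB22A, RAB6B, RAB3B and RAB27B a smaller one without overlap, while RAB5C and RAB11B overlap.

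Of the recycling RABs, RAB15 and RAB35 were lower, RAB14, RAB4A and RAB11A higher, and the change of RAB15 was the largest. RAB11A and RAB11B, the RABs of the recycling endosome, kept shares of their pair that overlapped between the groups. RAB11A had 4781, 4971 and 5088 normalized reads in shNEG and 5147, 5562 and 5230.3 in shSPINK2, and its call (log2 fold change 0.10, standard error 0.04, limma adjusted p = 0.0452) was lost without any 1 of the shNEG libraries or without shSPINK2 library b (limma adjusted p of 0.0578 to 0.213). RAB11B had 3030.4, 2920.1 and 3043 in shNEG and 3081, 2821 and 3113 in shSPINK2 (log2 fold change 0.002, standard error 0.05, limma adjusted p = 0.972), with the word in its 3′ UTR of 876 bases.

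RAB14, which moves cargo between the Golgi, endosomes and phagosomes, had 4784, 4789.9 and 5095 normalized reads in shNEG and 5439.5, 6247 and 5754 in shSPINK2 and was higher without overlap (log2 fold change 0.25, standard error 0.05, limma adjusted p = 2.51e-05). RAB35, which returns receptors quickly to the plasma membrane and acts in cytokinesis, had 3872, 3934 and 3866 in shNEG and 3368, 3297 and 3305 in shSPINK2 and was lower without overlap (log2 fold change -0.23, standard error 0.04, limma adjusted p = 2.41e-05). Of the exon bases of RAB35 14.8% are shared with RAB35-AS1 on the opposite strand (mean 69.99, log2 fold change -0.215). RAB15, which slows receptor recycling through early and recycling endosomes (chr14:64945814-64973226), had 436, 431 and 466 in shNEG and 258, 284 and 252 in shSPINK2. RAB15 fell by 40.4% (log2 fold change -0.75, standard error 0.08, limma adjusted p = 2.6e-10), and its canonical 3′ UTR has no GCTCTCA.

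RAB4A and RAB4B act in rapid recycling from early endosomes. RAB4A was called higher (log2 fold change 0.14, standard error 0.05, limma adjusted p = 0.0153), a call lost without shNEG library a or b or shSPINK2 library c (limma adjusted p of 0.0636 to 0.0796). RAB4B did not pass (log2 fold change 0.07, standard error 0.13, limma adjusted p = 0.645). RAB17 and RAB25, recycling RABs of epithelia, had no read and 1, 0, 2, 0, 0 and 2 reads in the 6 libraries.

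Of the ER and Golgi RABs, RAB1A and RAB1B, which are needed for transport from the ER to the Golgi, were among the most expressed. RAB1B had 5671, 5379.5 and 5463 normalized reads in shNEG and 5971, 5835 and 6099.9 in shSPINK2 (log2 fold change 0.12, standard error 0.04, limma adjusted p = 0.0186), and its call was lost without shNEG library b or c or shSPINK2 library c (limma adjusted p of 0.0627 to 0.111). RAB1A had 5231, 5049 and 5169 in shNEG and 6398, 6981 and 6996 in shSPINK2 and was higher without overlap (log2 fold change 0.40, standard error 0.04, limma adjusted p = 9.08e-10). RAB2A, which acts between the ER and the Golgi, was higher (log2 fold change 0.40, standard error 0.04, limma adjusted p = 8.47e-10), while its paralogue RAB2B did not pass (log2 fold change 0.13, standard error 0.06, limma adjusted p = 0.0895) except without shSPINK2 library c (limma adjusted p = 0.0191). Of the exon bases of RAB1A 22.9% are shared with CEP68 and of those of RAB1B 13.6% with an unnamed gene, both on the opposite strand.

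The RAB6 pair, which guides retrograde traffic within and out of the Golgi, moved apart. RAB6A had 4328, 4368 and 4498 normalized reads in shNEG and 4933, 5491 and 4884 in shSPINK2 and was higher (log2 fold change 0.21, standard error 0.05, limma adjusted p = 0.000153). RAB6B (chr3:133824235-133895882), the form best known from neurons, had 1137, 1254 and 1195 in shNEG and 746, 817 and 727 in shSPINK2. It fell by 36.2% without overlap (log2 fold change -0.65, standard error 0.06, limma adjusted p = 6.45e-12), and its 3′ UTR of 4553 bases holds the word. The share of RAB6B in the pair, per kilobase, was 17.5, 18.8 and 17.7% with shNEG against 10.9, 10.7 and 10.7% with shSPINK2. RAB6C, a copy of RAB6A without introns that can share its reads, had 1, 1 and 4 normalized reads in shNEG and 6.78, 5.94 and 6.09 in shSPINK2 and was too low to test, as was RAB34, a Golgi RAB that positions lysosomes, with 6.98, 4 and 2 in shNEG and 2.900, 12.9 and 1.01 in shSPINK2.

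The largest rise of any RAB gene was that of RAB39B (chrX:155258235-155264491), a RAB on the X chromosome known from an inherited intellectual disability with parkinsonism. It had 21.9, 28.98 and 20.02 normalized reads in shNEG and 97.8, 106 and 80.2 in shSPINK2. The libraries did not overlap, and it rose 3.96-fold (log2 fold change 1.99, standard error 0.19, limma adjusted p = 2.22e-11). Its level stayed low, at 6.93 ± 1.38 in shNEG and 27.7 ± 3.87 in shSPINK2 per kilobase (SD, n = 3). Its relative RAB39A had no read in any library.

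The other ER and Golgi RABs that passed were all higher. They were RAB18, a RAB of lipid droplets and the ER (log2 fold change 0.22), RAB33A (0.24), RAB33B (0.47), a Golgi RAB that binds the autophagy protein ATG16L1, RAB43 (0.34) and RAB36 (0.71). RAB36, with 19.9, 17.99 and 13.01 normalized reads in shNEG and 28.1, 30.7 and 24.4 in shSPINK2, was near the lower limit. Its call (log2 fold change 0.71, standard error 0.26, limma adjusted p = 0.0215) was lost with DESeq2 (adjusted p = 0.0984) and without shNEG library c or shSPINK2 library a or b (limma adjusted p of 0.0502 to 0.116). RAB43 lost its call with DESeq2 (adjusted p = 0.0635). RAB30 (0.30) and RAB41 (-0.22) did not pass, although RAB30 did without shNEG library c (log2 fold change 0.40, limma adjusted p = 0.0478), and PDZD11 on the opposite strand shares 49.3% of the exon bases of RAB41.

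RAB29, RAB32 and RAB38 belong to the RABs of lysosome-related organelles such as melanosomes, and RAB29 also recruits the kinase LRRK2. RAB29 had 3808, 3848 and 3673 normalized reads in shNEG and 4584, 4667 and 4655 in shSPINK2 and was higher without overlap (log2 fold change 0.30, standard error 0.04, limma adjusted p = 2.67e-07). RAB38 had 6.98, 13.99 and 9.01 in shNEG and 23.2, 17.8 and 15.2 in shSPINK2, and its call (log2 fold change 0.91, standard error 0.34, limma adjusted p = 0.0208) was lost with DESeq2 (adjusted p = 0.0945) and without library a of either group (limma adjusted p of 0.0999 and 0.102). RAB32, with 2.99, 1 and 3 in shNEG and 3.87, 5.94 and 6.09 in shSPINK2, was too low to test.

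Among the remaining members, RAB40B, an unusual RAB whose SOCS box joins it to ubiquitin ligases, was the one that rose. It had 174, 192 and 176 normalized reads in shNEG and 294, 304 and 314 in shSPINK2 (log2 fold change 0.75, standard error 0.09, limma adjusted p = 4.32e-09), without overlap, whereas its relative RAB40C did not pass (log2 fold change 0.02, standard error 0.05, limma adjusted p = 0.738). RAB42 had 97.7, 86.9 and 71.1 in shNEG and 53.2, 69.3 and 52.8 in shSPINK2 and was lower without overlap (log2 fold change -0.54, standard error 0.16, limma adjusted p = 0.00396). RAB23, a regulator of hedgehog signalling, was lower (log2 fold change -0.39, standard error 0.09, limma adjusted p = 0.000345), and 57.8% of its exon bases are shared with BAG2 on the opposite strand (mean 2871, log2 fold change -0.25), so without a stated strand setting its reads and those of BAG2 cannot be told apart. RAB28, a RAB of cilia, was lower (log2 fold change -0.18, standard error 0.06, limma adjusted p = 0.011), a call lost without shSPINK2 library c (log2 fold change -0.12, limma adjusted p = 0.0979).

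RAB44, a large RAB of bone marrow and mast cells with a high level per kilobase (1142 ± 9.77 in shNEG and 1199 ± 46.8 in shSPINK2, SD, n = 3), did not pass (log2 fold change 0.07, standard error 0.04, limma adjusted p = 0.167), although it did without shSPINK2 library b (limma adjusted p = 0.0276). RAB12 did not pass (log2 fold change 0.08, standard error 0.08, limma adjusted p = 0.418). RAB40A, too low to test, had 8.97, 6 and 4 normalized reads in shNEG and 5.81, 8.92 and 10.2 in shSPINK2.

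**Figure D4:**
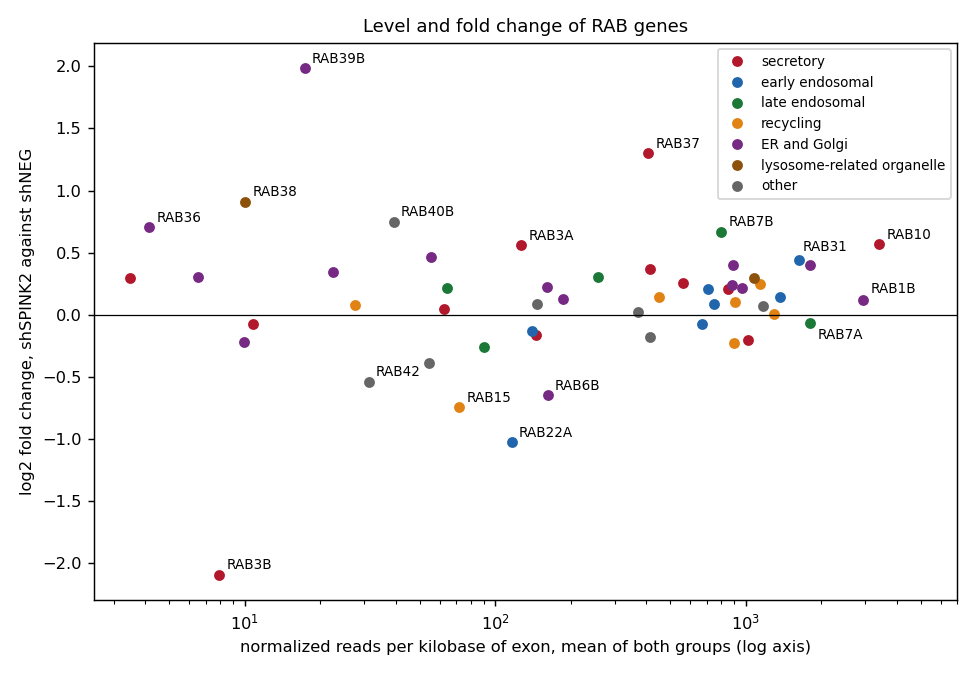
Log2 fold change of shSPINK2 against shNEG for the 54 tested RAB genes against their level in normalized reads per kilobase of exon (log axis, mean of both groups), coloured by class. The members with the largest fold changes, RAB3B and RAB39B, have levels under 20 per kilobase, and of the 10 members with the highest levels RAB10 is the one with an absolute log2 fold change over 0.5.

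The proteins that escort, load and switch RABs were read from lists that were written with earlier results of these data known. Their counts stand beside 28.5% higher and 29.8% lower among all tested genes. Of 8 genes for escort, prenylation and GDP dissociation, 4 were higher and 1 lower (median log2 fold change 0.09). GDI2, a GDP dissociation inhibitor, had 13611, 13744 and 13106 normalized reads in shNEG and 14692, 15404 and 15752 in shSPINK2 and was higher (log2 fold change 0.18, standard error 0.04, limma adjusted p = 0.000426). The RAB escort proteins moved apart by small amounts: CHM was higher (log2 fold change 0.22, standard error 0.06, limma adjusted p = 0.00294) and CHML lower (log2 fold change -0.20, standard error 0.05, limma adjusted p = 0.00111). RABAC1, a receptor that helps RABs leave GDP dissociation inhibitors, had 4223, 4035 and 4217 in shNEG and 7861, 7209 and 7406 in shSPINK2 and rose 1.801-fold (log2 fold change 0.85, standard error 0.04, limma adjusted p = 1.58e-18).

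Of 47 tested exchange factors, from a list of 53, 23 were higher and 7 lower (median log2 fold change 0.11), and 3 of them rose more than 2-fold. RIN2, an exchange factor of RAB5, had 102, 74.95 and 103 normalized reads in shNEG and 228, 255 and 248 in shSPINK2 (log2 fold change 1.39, standard error 0.12, limma adjusted p = 1.12e-12). TRAPPC6A, a subunit of the TRAPP complexes that act on RAB1, had 1226, 1201 and 1197 in shNEG and 2648, 2456 and 2697 in shSPINK2 (log2 fold change 1.105, standard error 0.05, limma adjusted p = 2.13e-20). DENND2D, of the DENN domain family, had 266, 253 and 294 in shNEG and 560.4, 556 and 585 in shSPINK2 (log2 fold change 1.07, standard error 0.08, limma adjusted p = 9.81e-15). The groups did not overlap in these genes, which were picked for their change in the same libraries, so this is no further evidence.

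Of 37 tested GTPase-activating proteins, from a list of 40, 17 were higher and 9 lower (median log2 fold change 0.16). TBC1D9B had 6029, 6058 and 5892 normalized reads in shNEG and 2698, 2505 and 2729 in shSPINK2 and fell by 55.9% (log2 fold change -1.18, standard error 0.04, limma adjusted p = 2.09e-22). TBC1D2B, related to the RAB7 regulator TBC1D2, had 4439, 4370.2 and 4421 in shNEG and 1944, 1900.1 and 2113 in shSPINK2 and fell by 55.02% (log2 fold change -1.15, standard error 0.05, limma adjusted p = 1.39e-21). TBC1D17 had 924, 912 and 995 in shNEG and 1822, 1785 and 1894 in shSPINK2 and rose 1.94-fold (log2 fold change 0.96, standard error 0.05, limma adjusted p = 7.35e-18). The groups did not overlap in these 3 genes either, which were picked in the same way.

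The effectors are given by the class of their RAB, without a test between classes. Their counts too stand beside 28.5% higher and 29.8% lower among all tested genes. Secretory effectors had 7 higher and 1 lower of 16 (median log2 fold change 0.08), early endosomal effectors 6 and 4 of 16 (median 0.025), late endosomal effectors 6 and 1 of 16 (median 0.07) and recycling effectors 4 and 7 of 14 (median -0.10). These are the tested genes of lists that held 24, 16, 18 and 16 genes in the same order. TGFBRAP1, a subunit of the CORVET tether on early endosomes, had 2513, 2429 and 2546 normalized reads in shNEG and 1424, 1417 and 1409 in shSPINK2 and fell by 43.2% (log2 fold change -0.82, standard error 0.05, limma adjusted p = 3.37e-17). RUBCNL, an autophagy protein of late endosomes also called Pacer, had 299, 299 and 304 in shNEG and 153, 163 and 149 in shSPINK2 and fell by 48.4% (log2 fold change -0.95, standard error 0.09, limma adjusted p = 2.72e-11). Both were picked for their change in the same libraries and were without overlap between the groups.

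**Figure D5:**
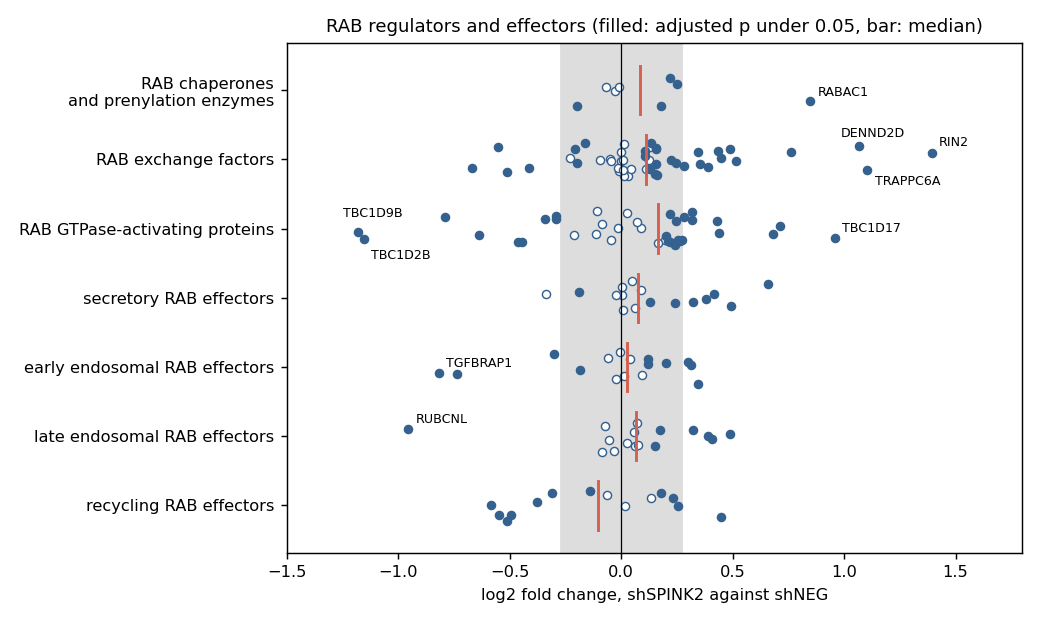
Log2 fold change of shSPINK2 against shNEG for the tested genes of 7 lists of RAB regulators and effectors (points, spread vertically at random within a list), with the list's median as a bar and the interquartile range of all tested genes as a grey band. Filled points are called at an adjusted p under 0.05. Named genes have an absolute log2 fold change of at least 0.8, and the recycling effectors are the list with a median below 0.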

How the data were processed

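RNA-seq of FUJIOKA cells (3 shNEG and 3 shSPINK2 libraries, mRNA kit, paired reads of 150 bases) was aligned by the authors to GRCh38 with STAR 2.7.11, counted per gene with featureCounts and compared with DESeq2 1.40.0, with versions from the submitters' processing notes. The strand setting and annotation release are not given in the sources used here. The deposited table lists 63236 genes without a column per library. The mean that the authors deposited is a signal, averaged over 6 libraries after each count was divided by a size factor. The authors' log2 fold change and its standard error, deposited as a score, were used to choose among whole numbers below, and the deposited Wald statistics and p-values were not used. None of these fold changes, errors and statistics is printed, and a mean given over all 6 libraries is the authors' mean.

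Whole reads were recovered from the deposited means. Means shared by 546 to 662 genes with 1 read in 1 library gave the 6 size factors, and each factor's group was read from whether those genes have a deposited fold change above or below 0. A gene's reads are the whole numbers that give its mean and its deposited fold change, refitted with the dispersion that the deposited standard error implies, to within 1e-10. Group differences therefore come from the deposited contrast, and the recovery adds the spread between libraries. Of 16131 genes whose mean reached 10, 15793 (97.9%) had reads recovered, as had all RAB genes with a read. Of the 906 genes with a mean of 8000 or more, 618 (68.21%) were recovered. The shares over all tested genes and the sums of recovered reads lack the rest of these highly expressed genes. With the fold change moved by 0.01 in either direction, 0 of 52 genes that fit the RAB symbol pattern and 0 of 500 random genes had a solution. Only genes with a mean from 6 to below 8000 were checked in this way. RAB10, RAB7A, RAB5B and RAB31 have higher means and were not checked.

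Recovered reads were compared with limma 3.58.1 (trend, no covariates) on log2(reads / size factor + 0.5) over the 15793 genes, with Benjamini-Hochberg adjustment, and a fold change on this scale understates the change of low genes. Alternatives used edgeR 4.0.16, DESeq2 1.42.0, other scalings, filters and thresholds, and each library left out. Scripts were tested on simulated data. Positions, exons and 3′ UTRs are from GENCODE release 44, which held 15657 of the tested genes. The members, classes and lists were chosen with earlier results of these data known. Named are RAB genes with an adjusted p under 0.05 and an absolute log2 fold change of at least 0.5, the 2 most expressed of each class, the RAB3, RAB5, RAB7, RAB11 and RAB27 families, called list genes with at least 0.8, GDI2, CHM, CHML and SPINK2, and the remaining RAB genes were named after their values were seen. A few items that the rule or the lists hold are not reported here. Scripts used R 4.3.3, Python 3.11.15 and numpy 2.4.6. Reads without molecular identifiers are not independent molecules, so limits from reads cover counting error only.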

Additional observations from a re-analysis of the deposited data

How the results depend on the processing

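All 54 tested RAB genes kept their direction and their side of the threshold with edgeR, a pseudocount of 2, TMM factors, centring and protein-coding genes alone, as did those that entered the fits with a mean of at least 50 and with a recovery window of double width, where RAB10 and GDI2 could not be searched. DESeq2 lost 5 RAB calls (RAB9B, RAB24, RAB36, RAB38 and RAB43) and the fit without a filter 6 (RAB9B, RAB11A, RAB21, RAB24, RAB36 and RAB38). The study's threshold (an absolute log2 fold change over 1) left 2 lower and 2 higher RAB genes, with 2 calls among secretory RABs, 1 among early endosomal, 1 among ER and Golgi and 0 among late endosomal, recycling, lysosome-related and other RABs, and 3 among exchange factors, 2 among GTPase-activating proteins and 0 in the other 5 lists. An adjusted p under 0.01 left 2 late endosomal, 3 recycling and 1 lysosome-related call. DESeq2 and no filter each left 2 late endosomal and 1 lysosome-related call, and a mean of at least 50 left 1 lysosome-related call. Of all tested genes, an adjusted p under 0.01 called 25.3% lower and 23.2% higher, and DESeq2 26.8% and 24.9%. Without a filter the shares were 13.8% and 12.8% of 31882 genes, and 35.5% and 33.1% with a mean of at least 50. In the main fit they were 29.8% and 28.5%. With RAB4A, RAB4B, RAB14 and RAB15 counted as early endosomal and RAB8A, RAB8B, RAB10 and RAB13 as recycling, the calls were 5 secretory and 8 early endosomal in place of 8 and 5. Leaving out 1 library gave 2 to 4 late endosomal, 3 to 5 recycling and 1 to 2 lysosome-related calls. Over all tested genes these fits called 4263 to 4671 lower and 4065 to 4364 higher, beside 4701 and 4498 in the main fit. They also turned the sign of 4 uncalled RAB genes. Their log2 fold changes ran from -0.024 to 0.047 (RAB11B), -0.013 to 0.165 (RAB4B), -0.185 to 0.086 (RAB13) and -0.46 to 0.23 (RAB41). The summed secretory level was 31.0% higher with RAB10 and 16.6% without it, which was chosen after seeing the data. A stricter threshold can by construction only remove calls, and a mean of at least 50 removes low genes from the fit. For the other changes the cause was not tested. No paired analysis was possible because the recovered libraries cannot be tied to the replicate numbers of the labels. The leave-one-out fits leave 2 libraries in a group. Members with a mean near 10, such as RAB38 and RAB36, are limited by their reads.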
